A study of Homo sapiens with 18 samples.

Results

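The 32 genes described here encode the NF-kB transcription factor subunits, the proteins that hold them in check or relay signals to them, and cytokines and surface proteins that NF-kB is known to switch on. They were chosen by symbol in the GENCODE 29 annotation, and all 32 had a row among the 58051 gene rows of the read count tables. By role they comprised 5 subunits, 5 IkB proteins, 7 ubiquitin and adaptor regulators, 2 kinases, 10 cytokines and chemokines and 3 other targets. Their messenger RNA was measured by RNA sequencing in the human line KBM7, derived from chronic myelogenous leukaemia, after 5 h of treatment. Each of 6 groups had 3 libraries. The compounds dCeMM-1 to dCeMM-4 were each given at 10 times their own EC50 and THZ531 at 600 nM, and the solvent DMSO was the control. As background, dCeMM-1 is known to bring about the loss of RBM39, a splicing factor, and the other dCeMM compounds that of cyclin K. THZ531 blocks CDK12 and CDK13, which need cyclin K, by binding them covalently. All groups were the same unmodified line, so the results hold for this line and this time only. Nothing in the labels tells if replicate libraries stem from separate cultures, and p-values measure only the spread between them.

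NF-kB acts as dimers of REL-family proteins that inhibitory IkB proteins keep in the cytoplasm until a receptor signal has the IkB destroyed. Freed dimers enter the nucleus, bind kappa-B sites in promoters and switch on cytokines, adhesion molecules and also their own inhibitors, which makes a feedback loop. Several of these messages are known to be short-lived, in part through AU-rich sequences in their 3′ untranslated regions.

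Of the 32 genes, 29 passed the filter on low counts and were tested among 15055 genes. TNF, the founding cytokine of the pathway, had 13 reads over all 18 libraries, with at most 2 in a library. The chemokine gene CCL3 had 4 reads in 3 libraries, and the chemokine gene CCL4 had none, where a count of 0 allows up to 3 reads a library. Both have near-identical copies in the genome, so reads placed at several positions would be missing from them. In DMSO the highest level per kilobase of exon was that of NFKBIA, at 55.4 ± 2.88 CPM per kilobase (CPM being read counts scaled to library size) (SD, n = 3). BIRC2 followed at 28.9 ± 2.99 and ICAM1 at 24.6 ± 1.52 CPM per kilobase, and these neighbours in the order differed by more than their SDs. OSM at 15.8 ± 1.48, IL1B at 14.8 ± 0.957 and NFKBIE at 14.5 ± 0.945 CPM per kilobase lay in the middle and did not differ beyond their spread. The lowest tested were TRAF1 at 0.798 ± 0.221 and CXCL2 at 0.225 ± 0.0846 CPM per kilobase.

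Levels below are CPM scaled by TMM, which centres the bulk of genes near no change, so changes on this scale are relative to other genes. A gene is said to have risen or fallen where edgeR's quasi-likelihood test gave a Benjamini-Hochberg adjusted p under 0.05 over all 15055 genes. Most members fell with every compound on this scale except dCeMM-4. The members were chosen with earlier results of these data known, so the counts are a description. With dCeMM-1, 18 of 29 fell and 3 rose, against 14.8% and 16.5% of all genes. The dCeMM-1 count was 11 without DMSO replicate 2, and 15 to 18 without any other library. With dCeMM-2, 20 fell and 4 rose, against 41.2% and 37.1% of all genes. With dCeMM-3, 24 fell and 3 rose, against 45.1% and 35.9% of all genes. With dCeMM-4, 14 fell and 6 rose, against 35.3% and 32.9% of all genes. With THZ531, 22 fell and 5 rose, against 43.7% and 35.8% of all genes.

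The sizes differed by compound. The median log2 fold change of the 29 members was -0.25 with dCeMM-1, -0.79 with dCeMM-2, -1.33 with dCeMM-3, -0.32 with dCeMM-4 and -1.03 with THZ531. Over all genes tested the medians were 0.03, -0.02, -0.15, 0.01 and -0.10 in the same order. Members that fell at least 2-fold numbered 1 with dCeMM-1, 12 with dCeMM-2, 19 with dCeMM-3, 8 with dCeMM-4 and 15 with THZ531. Those that rose at least 2-fold numbered 2 with dCeMM-4, 2 with THZ531 and 0 with the others. A 2-fold change in either direction was called in 2.72%, 43.1%, 50.2%, 25.1% and 45.5% of all genes in the same order of compounds. With dCeMM-1 and dCeMM-2 the members' share, falls and rises together, lay near that of all genes. It was larger with dCeMM-3, dCeMM-4 and THZ531. The 32 genes together took 0.149 to 0.153% of gene counts with dCeMM-1, 0.0754 to 0.0813% with dCeMM-2, 0.0489 to 0.0555% with dCeMM-3, 0.117 to 0.131% with dCeMM-4, 0.0611 to 0.0668% with THZ531 and 0.159 to 0.167% with DMSO. No library of a treated group reached the DMSO range. All 5 comparisons share the 3 DMSO libraries.

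**Figure D1:**
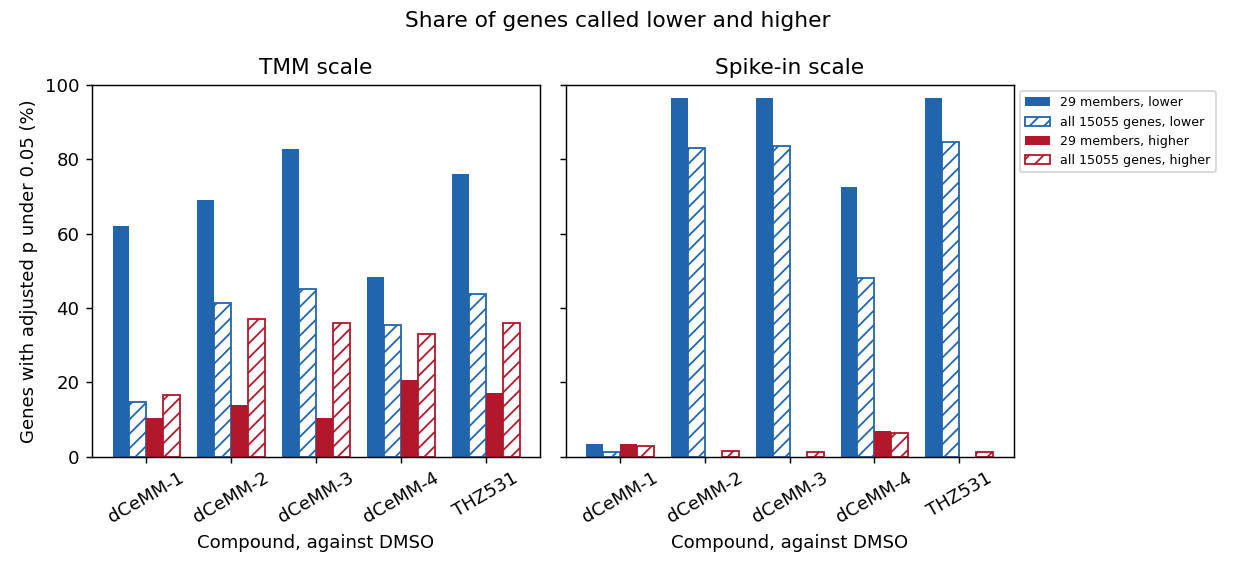
Share of genes (%) with an adjusted p under 0.05 against DMSO for each compound, lower in blue and higher in red, for the 29 tested members (filled) and all 15055 genes (hatched), on the TMM scale (left) and the spike-in scale (right). On the TMM scale the members' share lower was 62.1% with dCeMM-1 and 82.8% with dCeMM-3, above 14.8% and 45.1% of all genes. The members were chosen with earlier results of these data known, so the shares are a description.

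Libraries were also scaled by synthetic RNAs added as a spike-in. The share of spike-in counts was 0.512% ± 0.0784 under dCeMM-2, 0.542% ± 0.0699 under dCeMM-3 and 0.531% ± 0.0992 under THZ531, against 0.179% ± 0.0200 with DMSO (SD, n = 3 each; exact permutation p = 0.1, the smallest possible). It was 0.234% ± 0.0497 under dCeMM-4 treatment, with an exact permutation p of 0.2, and 0.176% ± 0.0193 under dCeMM-1, with one of 1. On that scale the median of all genes was 0.10 with dCeMM-1, -1.80 with dCeMM-2, -1.96 with dCeMM-3, -0.56 with dCeMM-4 and -1.94 with THZ531 (log2 fold change against DMSO). The median of the members was -0.18, -2.57, -3.18, -0.87 and -2.88 in the same order. With dCeMM-2, dCeMM-3 and THZ531, 28 members fell and 0 rose on the spike-in scale, against 83%, 83.7% and 84.7% of all genes lower and 1.48%, 1.12% and 1.32% higher. With dCeMM-4, 21 fell and 2 rose, against 48% and 6.3% of all genes. With dCeMM-1, 1 fell and 1 rose, against 1.34% and 2.83% of all genes. How much spike-in was added for a given number of cells is not given in the sources used here, and in bulk RNA fewer cells of a type and less RNA per cell cannot be told apart.

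**Figure D2:**
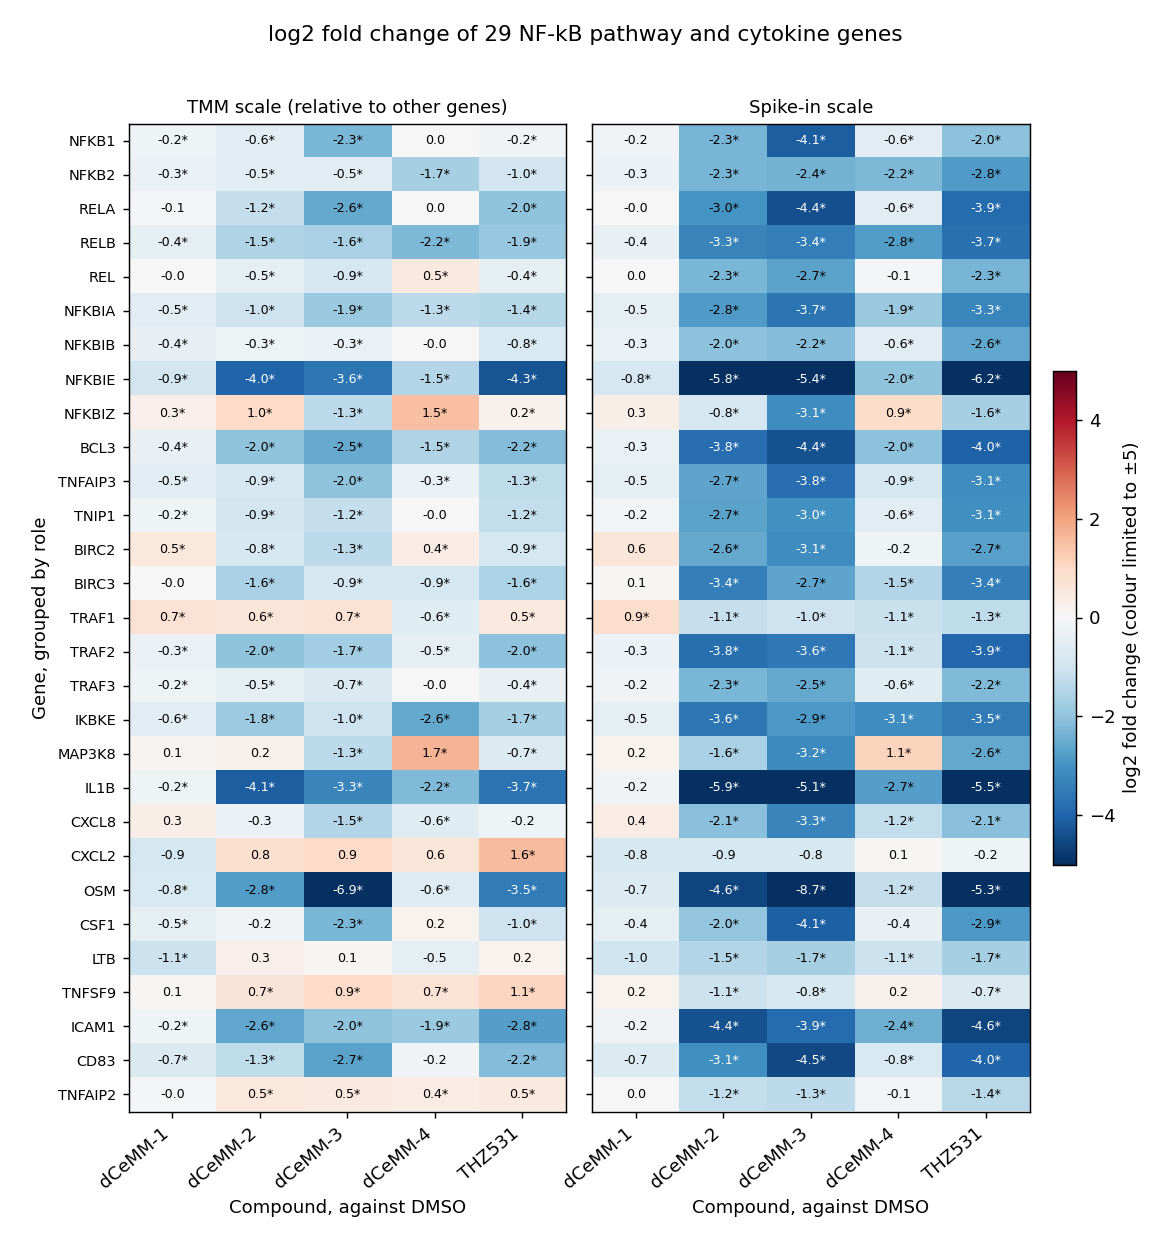
log2 fold change of the 29 tested members (rows, grouped by role) against DMSO for each compound (columns), on the TMM scale (left) and the spike-in scale (right), with an asterisk where the adjusted p was under 0.05. OSM with dCeMM-3 has the lowest value on either scale, -6.94 and -8.72, and NFKBIZ and MAP3K8 rise with dCeMM-4 on both.

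Among the subunits, on the TMM scale, RELB and NFKB2 fell the most with dCeMM-4, where RELA and NFKB1 did not pass the test. RELA and NFKB1 fell the most with dCeMM-3. On the spike-in scale all 5 subunits had a negative log2 difference for dCeMM-2 and for dCeMM-3 against dCeMM-4. The smallest differences were -0.08 and -0.14, and 3 and 4 subunits were called lower. So the falls of RELB and NFKB2 were not largest with dCeMM-4 on that scale. RELA and NFKB1 encode p65 and p50, the dimer of the canonical pathway, and RELB and NFKB2 encode the dimer of the non-canonical pathway. RELA had 37.7 ± 2.12 CPM with dCeMM-2, 14.7 ± 0.903 CPM with dCeMM-3, 87.2 ± 4.16 CPM with dCeMM-4 and 21.4 ± 2.19 CPM with THZ531, against 86.2 ± 3.92 CPM with DMSO (SD, n = 3 each). Its log2 fold change was -1.20 (SE 0.08) with dCeMM-2, -2.56 (SE 0.09) with dCeMM-3 and -2.01 (SE 0.08) with THZ531, with a highest adjusted p of 1.15e-16. NFKB1 fell the most with dCeMM-3, to 18.8 ± 0.480 CPM against 92.3 ± 4.84 CPM with DMSO, a log2 change of -2.30 (SE 0.08, adjusted p = 6.08e-26). It had -0.23 (SE 0.07, adjusted p = 0.0086) with dCeMM-1, -0.55 (SE 0.07, adjusted p = 4.41e-09) with dCeMM-2 and -0.19 (SE 0.07, adjusted p = 0.0126) with THZ531, so with dCeMM-2 and THZ531 it changed by less than RELA. With dCeMM-4 neither passed the test, and the 95% interval of the log2 fold change was -0.13 to 0.14 for NFKB1 and -0.13 to 0.16 for RELA. On the spike-in scale both fell with dCeMM-4, by a log2 change of -0.56 (adjusted p = 0.017) for NFKB1 and -0.55 (adjusted p = 0.019) for RELA, which is about the median of all genes there.

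On the TMM scale NFKB2 was lowest with dCeMM-4, at 23.7 ± 0.531 CPM against 74.8 ± 5.12 CPM with DMSO. This was a log2 change of -1.67 (SE 0.09, adjusted p = 5.61e-19). It had -0.34 (SE 0.08) with dCeMM-1, -0.53 (SE 0.09) with dCeMM-2 and with dCeMM-3, and -0.97 (SE 0.09) with THZ531, with a highest adjusted p of 0.00137. RELB had 19.2, 21.4 and 18.8 CPM with dCeMM-1, 9.43, 8.98 and 9.57 CPM with dCeMM-2, and 9.01, 9.54 and 7.55 CPM with dCeMM-3. It had 5.91, 4.93 and 6.28 CPM with dCeMM-4 and 6.81, 7.54 and 7.33 CPM with THZ531, against 26.0, 28.4 and 24.9 CPM with DMSO. Every treated library lay below every DMSO library. The log2 fold change of RELB was -0.43 (SE 0.10) with dCeMM-1, -1.52 (SE 0.11) with dCeMM-2, -1.62 (SE 0.11) with dCeMM-3, -2.23 (SE 0.11) with dCeMM-4 and -1.89 (SE 0.12) with THZ531. The highest adjusted p of these was 0.000695, with dCeMM-1, where the call was absent on the spike-in scale (adjusted p = 0.43). No other subunit gene passed the test with dCeMM-1 on that scale.

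REL, the c-Rel subunit of lymphoid and myeloid cells, had 24.0, 23.8 and 25.3 CPM with dCeMM-1, 16.8, 19.7 and 16.3 CPM with dCeMM-2, and 15.7, 11.8 and 13.4 CPM with dCeMM-3. It had 33.7, 34.8 and 36.6 CPM with dCeMM-4 and 14.1, 21.3 and 19.6 CPM with THZ531, against 22.9, 26.8 and 25.3 CPM with DMSO. The dCeMM-4 libraries were all above DMSO, those of dCeMM-2, dCeMM-3 and THZ531 all below, and those of dCeMM-1 among them. REL rose with dCeMM-4 by a log2 change of 0.49 (SE 0.11, adjusted p = 1e-04) on the TMM scale, and had -0.08 (adjusted p = 0.79) on the spike-in scale. Exons of REL share 5702 bases with another annotated gene on the same strand, so its reads are uncertain.

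**Figure D3:**
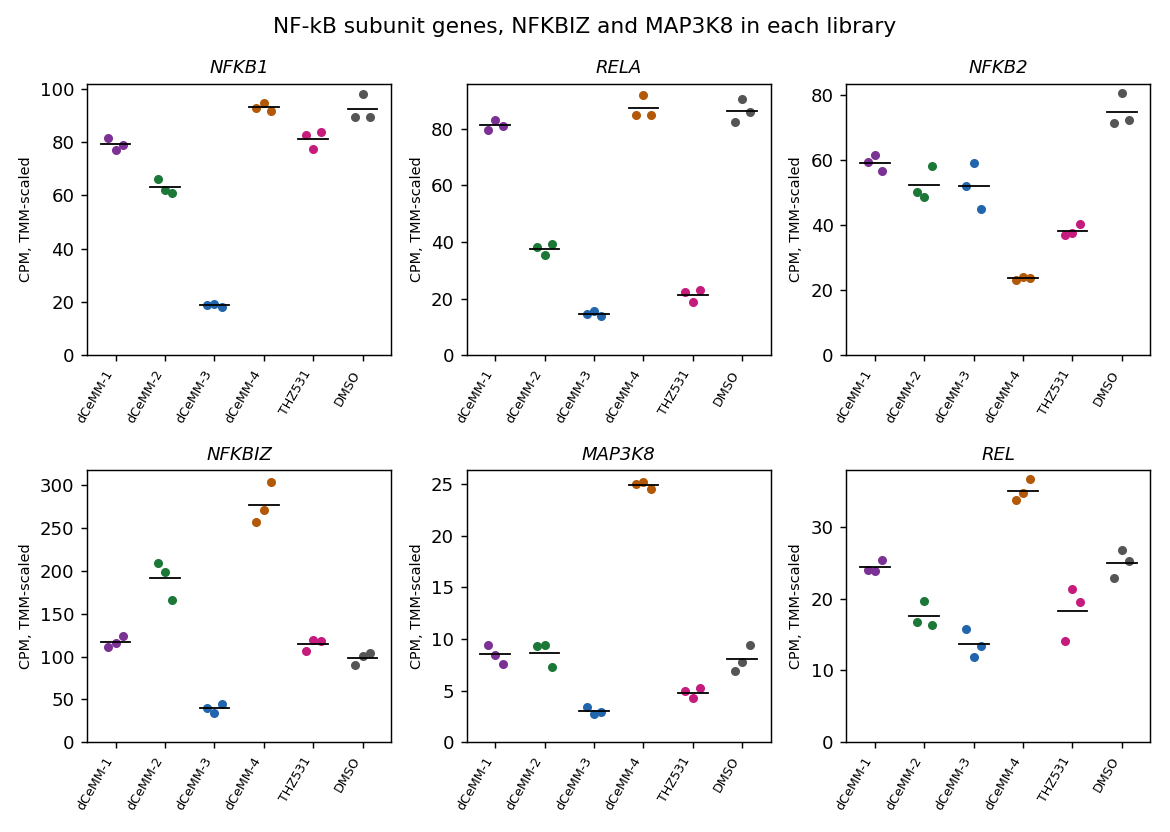
TMM-scaled CPM in each library (points) with the mean of 3 (line) for NFKB1, RELA, NFKB2, NFKBIZ, MAP3K8 and REL, by treatment with DMSO at the right. RELA and NFKB1 lie near DMSO with dCeMM-4 and lowest with dCeMM-3, while NFKB2 lies lowest with dCeMM-4 and MAP3K8 has 24.5 to 25.2 CPM there.

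Of the 5 IkB genes, 4 fell with dCeMM-1, 4 with dCeMM-2, 5 with dCeMM-3, 3 with dCeMM-4 and 4 with THZ531, where 14.8%, 41.2%, 45.1%, 35.3% and 43.7% of all genes fell. NFKBIE encodes IkB-epsilon, an inhibitor that NF-kB itself induces. It had 19.9, 21.7 and 19.0 CPM with dCeMM-1, 2.45, 2.27 and 2.43 CPM with dCeMM-2, and 3.22, 3.01 and 2.94 CPM with dCeMM-3. It had 13.6, 12.4 and 15.4 CPM with dCeMM-4 and 1.56, 1.49 and 2.52 CPM with THZ531, against 36.8, 40.2 and 35.5 CPM with DMSO. All 15 treated libraries were below all DMSO libraries, lowest with THZ531 and dCeMM-2. Its log2 fold change was -0.90 (SE 0.10) with dCeMM-1, -3.98 (SE 0.14) with dCeMM-2, -3.62 (SE 0.13) with dCeMM-3, -1.46 (SE 0.10) with dCeMM-4 and -4.33 (SE 0.15) with THZ531, with a highest adjusted p of 3.38e-09. Ranked from the lowest log2 fold change among 15055 genes, NFKBIE stood at place 23 with dCeMM-2 and place 36 with THZ531. It was also the 1 member that fell with dCeMM-1 on the spike-in scale (log2 fold change -0.84, SE 0.22, adjusted p = 0.011).

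NFKBIA encodes IkB-alpha, the main inhibitor of the canonical dimer and a feedback target. It had 94.9, 90.7 and 91.0 CPM with dCeMM-1, 63.7, 64.1 and 64.6 CPM with dCeMM-2, and 39.4, 35.1 and 34.8 CPM with dCeMM-3. It had 56.5, 52.0 and 53.3 CPM with dCeMM-4 and 47.9, 48.1 and 52.8 CPM with THZ531, against 137, 133 and 124 CPM with DMSO. All treated libraries were below DMSO, and dCeMM-3 was lowest. The log2 fold change was -0.52 (SE 0.07) with dCeMM-1, -1.04 (SE 0.07) with dCeMM-2, -1.85 (SE 0.07) with dCeMM-3, -1.29 (SE 0.07) with dCeMM-4 and -1.41 (SE 0.07) with THZ531, with a highest adjusted p of 2.11e-07. With dCeMM-1 the call was lost on the spike-in scale (log2 fold change -0.45, adjusted p = 0.23).

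NFKBIZ rose with dCeMM-4 on both scales and fell with dCeMM-3 on both. It encodes IkB-zeta, a nuclear cofactor that helps NF-kB switch on a secondary set of genes. Its libraries held 257, 271 and 304 CPM with dCeMM-4 and 39.7, 34.0 and 45.0 CPM with dCeMM-3, against 90.1, 101 and 104 CPM with DMSO. The dCeMM-4 libraries lay above DMSO and the dCeMM-3 libraries below, without overlap. The log2 fold change was 1.50 (SE 0.09, adjusted p = 6.14e-17) with dCeMM-4 and -1.30 (SE 0.09, adjusted p = 8.56e-15) with dCeMM-3, and kept its sign on the spike-in scale, at 0.93 and -3.12. With dCeMM-2 it was 0.97 (SE 0.09, adjusted p = 3.18e-12) on the TMM scale and -0.82 (adjusted p = 0.00013) on the spike-in scale. BCL3, a nuclear IkB protein that acts with p50 and p52, fell with every compound on the TMM scale, by a log2 change of -0.37 (SE 0.10) with dCeMM-1, -2.02 (SE 0.12) with dCeMM-2, -2.52 (SE 0.12) with dCeMM-3, -1.49 (SE 0.11) with dCeMM-4 and -2.17 (SE 0.12) with THZ531. The highest adjusted p of these was 0.00356, with dCeMM-1, where the call was absent on the spike-in scale. NFKBIB, which encodes IkB-beta, changed by less than 2-fold with each compound on the TMM scale. On the spike-in scale all 5 IkB genes, NFKBIB among them, fell with dCeMM-3 and THZ531. Their log2 changes there were -2.16 or lower with dCeMM-3 and -1.64 or lower with THZ531.

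Promoter sequences, taken from RefSeq (build GRCh38.p14) as 250 bases before to 50 bases after a transcript start, were found for 27 of the 32 genes, 43 promoters in all. CCL4, CSF1, NFKBIE, OSM and RELB had none in that table. The consensus of the kappa-B site was GGGRNNYYCC (R is A or G, Y is C or T, N is any base). It was searched on both strands with overlapping matches counted. This consensus was present in 20 of the 43 promoters (46.5%) and in 3956 of 35116 promoters of the same length (11.3%). It was found for 15 members, and no share by gene over all promoters stands beside that count. Windows of a gene can overlap, as for LTB and MAP3K8, so the same site can count more than once. The NFKBIA and NFKBIZ promoters are shown because the 2 genes both carry a match and moved in opposite directions with dCeMM-4, and the IL1B promoter because it has no match and its gene was among the largest falls. Capitals mark the match, which begins 81 bases before the start in NFKBIA (chr14:35404700-35404999, minus strand) and 223 bases before it in NFKBIZ (chr3:101827740-101828039, plus strand, the upstream promoter of 2). The IL1B window is chr2:112836730-112837029, minus strand.
NFKBIA: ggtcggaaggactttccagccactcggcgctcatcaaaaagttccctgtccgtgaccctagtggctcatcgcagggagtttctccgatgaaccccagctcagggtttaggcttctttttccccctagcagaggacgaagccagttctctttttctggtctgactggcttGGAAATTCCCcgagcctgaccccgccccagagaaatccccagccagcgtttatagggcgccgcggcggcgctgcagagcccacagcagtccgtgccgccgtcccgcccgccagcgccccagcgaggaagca
NFKBIZ: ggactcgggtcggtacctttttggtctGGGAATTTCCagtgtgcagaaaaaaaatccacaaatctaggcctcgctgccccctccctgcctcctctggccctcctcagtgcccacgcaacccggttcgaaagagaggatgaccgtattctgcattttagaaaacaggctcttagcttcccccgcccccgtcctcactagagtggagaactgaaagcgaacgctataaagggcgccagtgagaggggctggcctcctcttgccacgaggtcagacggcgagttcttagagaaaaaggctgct
IL1B: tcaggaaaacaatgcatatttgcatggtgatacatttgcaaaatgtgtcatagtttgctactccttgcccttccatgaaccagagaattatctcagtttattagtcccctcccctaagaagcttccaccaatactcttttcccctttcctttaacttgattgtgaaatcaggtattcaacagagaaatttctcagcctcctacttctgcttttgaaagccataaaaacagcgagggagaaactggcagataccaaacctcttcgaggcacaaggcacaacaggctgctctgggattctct

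Of the tested members, those without a match had the lower median with every compound but dCeMM-1. The 15 with a match had a median log2 fold change of -0.34 with dCeMM-1, -0.53 with dCeMM-2, -1.20 with dCeMM-3, -0.03 with dCeMM-4 and -0.77 with THZ531. The 10 without had -0.07, -0.99, -1.39, -0.55 and -1.27 in the same order. CSF1, NFKBIE, OSM and RELB, for which no promoter was found, had medians of -0.63, -2.16, -2.94, -1.05 and -2.68. A match is a run of letters, not a measured binding site, and these medians are given without a test. Sites that differ from the consensus by any letter were not counted, so a gene without a match may still have a kappa-B site.

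The largest fall of the set was that of OSM with dCeMM-3. OSM and IL1B were named for large falls when the list was drawn up, so their values are a description. OSM encodes oncostatin M, a cytokine of the interleukin-6 family that myeloid cells secrete. It had 20.1, 21.1 and 19.0 CPM with dCeMM-1, 5.35, 4.61 and 4.34 CPM with dCeMM-2, and 0.263, 0.207 and 0.318 CPM with dCeMM-3. It had 21.0, 23.4 and 20.8 CPM with dCeMM-4 and 3.12, 2.89 and 3.07 CPM with THZ531, against 32.9, 36.8 and 30.7 CPM with DMSO. The dCeMM-3 libraries held 4, 2 and 4 reads against 568, 706 and 160 reads in the DMSO libraries, and no treated library reached DMSO. The log2 fold change was -0.75 (SE 0.09) with dCeMM-1, -2.81 (SE 0.12) with dCeMM-2, -6.94 (SE 0.20) with dCeMM-3, -0.64 (SE 0.09) with dCeMM-4 and -3.48 (SE 0.13) with THZ531, with a highest adjusted p of 1.03e-07. In mean CPM this was 127-fold lower with dCeMM-3 than with DMSO, and the change ranked at place 2 from the lowest among 15055 genes. With dCeMM-1 the spike-in scale gave -0.69 (SE 0.22, adjusted p = 0.0511), which missed the threshold.

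IL1B encodes interleukin-1 beta, a fever-inducing cytokine made as an inactive precursor. It had 40.1, 38.6 and 38.1 CPM with dCeMM-1, 1.93, 2.83 and 3.57 CPM with dCeMM-2, and 4.54, 4.56 and 4.77 CPM with dCeMM-3. It had 9.45, 10.8 and 10.1 CPM with dCeMM-4 and 3.04, 5.00 and 2.76 CPM with THZ531, against 47.3, 47.7 and 42.4 CPM with DMSO. All treated libraries were below DMSO, those of dCeMM-1 narrowly. The fold change on the log2 scale was -4.11 (SE 0.15) with dCeMM-2, -3.32 (SE 0.13) with dCeMM-3, -2.19 (SE 0.11) with dCeMM-4 and -3.69 (SE 0.14) with THZ531, with a highest adjusted p of 9.74e-20. With dCeMM-2 it ranked at place 14 from the lowest of 15055 genes. With dCeMM-1 it was -0.25 (SE 0.10, adjusted p = 0.0469), and this call was lost on the spike-in scale (adjusted p = 0.776) and without any 1 of 9 libraries, with adjusted p up to 0.154. These were DMSO replicates 1 and 2, the 3 dCeMM-1 libraries, dCeMM-2 replicate 2, dCeMM-3 replicate 1, and dCeMM-4 replicates 2 and 3.

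The other cytokine genes responded less or unevenly. CSF1, the growth factor of macrophages, fell with dCeMM-3 to 2.43 ± 0.867 CPM against 11.5 ± 1.18 CPM with DMSO, a log2 change of -2.27 (SE 0.19, adjusted p = 5.22e-14), and with THZ531 by one of -1.03 (SE 0.16, adjusted p = 3.05e-07). CXCL8, the neutrophil attractant interleukin-8, had a log2 change of 0.33 (SE 0.14, adjusted p = 0.0733) with dCeMM-1 and -0.29 (SE 0.16, adjusted p = 0.0999) with dCeMM-2. It was -1.48 (SE 0.18, adjusted p = 2.88e-09) with dCeMM-3, -0.62 (SE 0.16, adjusted p = 0.000615) with dCeMM-4 and -0.21 (SE 0.16, adjusted p = 0.222) with THZ531. Its calls with dCeMM-3 and dCeMM-4 held without any 1 of the 18 libraries, while the other comparisons could gain a call. Without DMSO replicate 2 it was called lower with dCeMM-2 (-0.46, adjusted p = 0.0171) and with THZ531 (-0.38, adjusted p = 0.0425). It was called higher with dCeMM-1 without DMSO replicate 3 (0.41, adjusted p = 0.0432) or without dCeMM-1 replicate 2 (0.44, adjusted p = 0.0298). On the spike-in scale CXCL8 was also called lower with dCeMM-2 and THZ531, where 83% and 84.7% of all genes fell. LTB, lymphotoxin beta, was the member whose fitted change with dCeMM-1 passed 2-fold, although the mean levels differed by 1.98-fold, with 0.956 ± 0.218 CPM against 1.89 ± 0.416 CPM with DMSO, a log2 change of -1.07 (SE 0.30, adjusted p = 0.00557). That call was lost without DMSO replicate 2 (-0.86, adjusted p = 0.0841) and on the spike-in scale (-0.99, adjusted p = 0.101).

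The cytokine genes that rose did so on the TMM scale only. TNFSF9, the ligand of the co-stimulatory receptor 4-1BB, had 6.92 ± 2.10 CPM with THZ531 against 2.90 ± 1.39 CPM with DMSO, a log2 change of 1.09 (SE 0.24, adjusted p = 0.000132) that ranged from 0.89 to 1.57 when 1 library was left out. Spike-in scaling gave -0.74 (adjusted p = 0.0103). CXCL2, a chemokine with close relatives that can share its reads, had 1.16 ± 0.0924 CPM with THZ531 against 0.338 ± 0.127 CPM with DMSO, a log2 change of 1.58 (SE 0.46, adjusted p = 0.00205). Spike-in scaling gave -0.21 (adjusted p = 0.711).

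**Figure D4:**
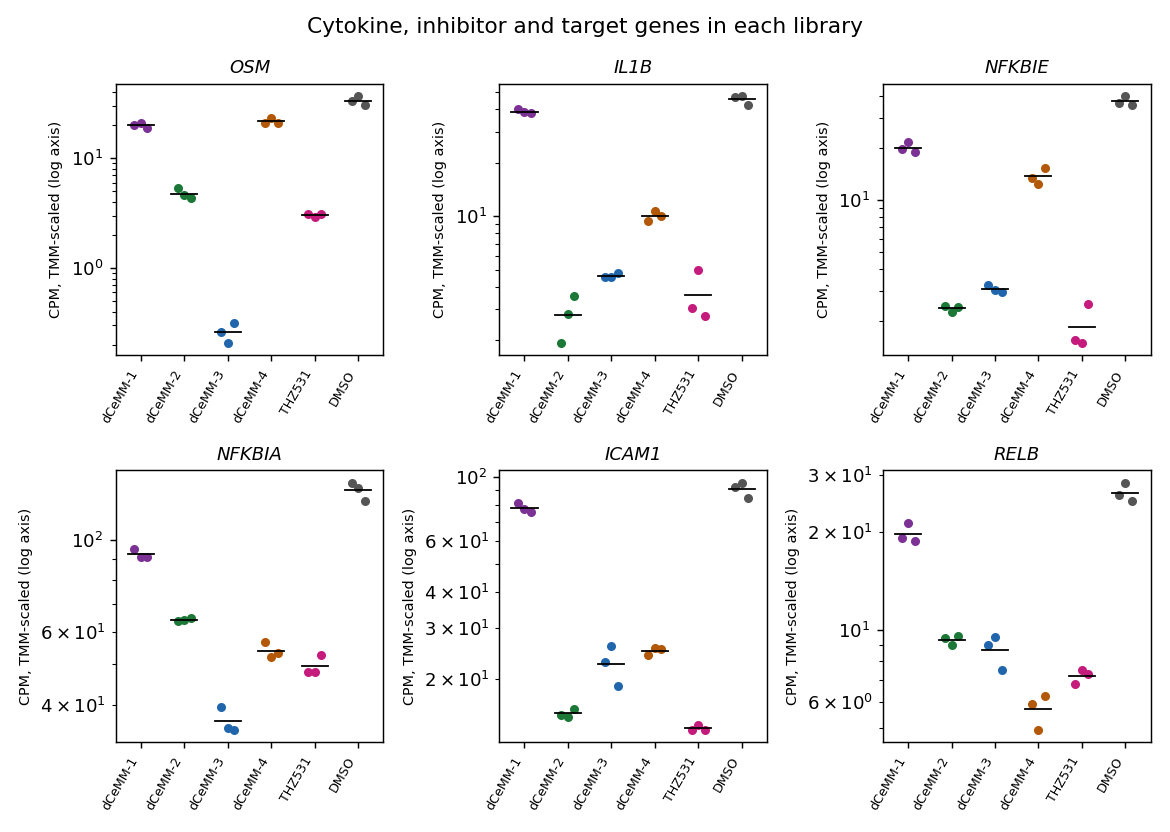
TMM-scaled CPM in each library (points, log axis) with the mean of 3 (line) for OSM, IL1B, NFKBIE, NFKBIA, ICAM1 and RELB, by treatment with DMSO at the right. OSM lies near 0.3 CPM with dCeMM-3, and each gene lies below DMSO in every treated library.

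Of the 3 other targets, ICAM1 fell with every compound on the TMM scale. ICAM1 encodes an adhesion molecule that leukocytes bind. It had 81.5, 77.6 and 75.9 CPM with dCeMM-1, 15.1, 14.8 and 15.8 CPM with dCeMM-2, and 22.9, 26.0 and 18.9 CPM with dCeMM-3. It had 24.2, 25.7 and 25.4 CPM with dCeMM-4 and 13.4, 14.0 and 13.4 CPM with THZ531, against 92.6, 95.6 and 84.7 CPM with DMSO. No treated library overlapped DMSO, and THZ531 and dCeMM-2 were lowest. On the log2 scale the fold change was -0.22 (SE 0.08) with dCeMM-1, -2.59 (SE 0.09) with dCeMM-2, -2.03 (SE 0.09) with dCeMM-3, -1.87 (SE 0.08) with dCeMM-4 and -2.75 (SE 0.09) with THZ531, with a highest adjusted p of 0.0241, that of dCeMM-1, which was absent on the spike-in scale (adjusted p = 0.79). Exons of ICAM1 overlap 876 bases of opposite-strand genes. CD83, a marker of mature dendritic cells, had a log2 change of -1.26 (SE 0.13) with dCeMM-2, -2.68 (SE 0.15) with dCeMM-3 and -2.16 (SE 0.14) with THZ531, with a highest adjusted p of 2.47e-11, and -0.18 (SE 0.11, adjusted p = 0.164) with dCeMM-4. TNFAIP2, a TNF-induced gene, rose with dCeMM-2, dCeMM-3, dCeMM-4 and THZ531 on the TMM scale, by log2 fold changes of 0.39 to 0.54. On the spike-in scale it fell with dCeMM-2, dCeMM-3 and THZ531, by -1.24, -1.33 and -1.37.

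Of the 7 regulators between receptor and NF-kB, 4 fell with dCeMM-1, 6 with dCeMM-2, 6 with dCeMM-3, 4 with dCeMM-4 and 6 with THZ531, against 14.8%, 41.2%, 45.1%, 35.3% and 43.7% of all genes. TRAF2, an adaptor of TNF receptors, had a log2 change of -1.99 (SE 0.14) with dCeMM-2, -1.75 (SE 0.13) with dCeMM-3, -0.50 (SE 0.11) with dCeMM-4 and -2.04 (SE 0.13) with THZ531, with a highest adjusted p of 0.000125. TNFAIP3, which encodes A20, an enzyme that edits ubiquitin chains to end signalling, had -2.01 (SE 0.13, adjusted p = 7.16e-17) with dCeMM-3 and -1.25 (SE 0.12, adjusted p = 7.66e-12) with THZ531. Its partner TNIP1 had -1.20 (SE 0.08) with dCeMM-3 and -1.22 (SE 0.08) with THZ531, and -0.02 with dCeMM-4, where it did not pass the test. TRAF1 rose with dCeMM-1, by a log2 change of 0.74 (SE 0.17, adjusted p = 0.000937), and was the 1 member that rose with dCeMM-1 on the spike-in scale too (0.87, adjusted p = 0.026). It also rose with dCeMM-2, dCeMM-3 and THZ531 on the TMM scale, at 0.51 to 0.71, but fell there on the spike-in scale, at -1.26 to -1.04.

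BIRC2 and BIRC3, the cIAP ubiquitin ligases, lie 7807 bases apart on the same strand of chromosome 11. On the TMM scale both fell with dCeMM-2, dCeMM-3 and THZ531, and they did not move alike with dCeMM-1 and dCeMM-4. BIRC2 had 188 ± 8.26 CPM with dCeMM-1, 74.6 ± 12.6 CPM with dCeMM-2, 52.4 ± 12.3 CPM with dCeMM-3, 168 ± 6.30 CPM with dCeMM-4 and 70.7 ± 7.45 CPM with THZ531, against 131 ± 13.6 CPM with DMSO. It rose with dCeMM-1 and dCeMM-4 on the TMM scale (log2 fold change 0.53 and 0.37; 0.59 and -0.20 on the spike-in scale, neither past the test) and fell with the other compounds, most with dCeMM-3, at -1.31 (SE 0.14, adjusted p = 9.23e-08). BIRC3 did not pass the test with dCeMM-1 (-0.01) and fell with dCeMM-2 and THZ531 by log2 fold changes of -1.64 (SE 0.09) and -1.56 (SE 0.09), with a highest adjusted p of 1.37e-17. With dCeMM-4 it was -0.90 (SE 0.09, adjusted p = 2.74e-11), opposite in sign to BIRC2 on the TMM scale, while on the spike-in scale both were negative (-1.46 for BIRC3 and -0.20 for BIRC2).

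The 2 kinases parted with dCeMM-4. MAP3K8, the kinase that links NF-kB1 p105 to the ERK pathway, had 24.9 ± 0.357 CPM with dCeMM-4 against 8.02 ± 1.27 CPM with DMSO, a log2 change of 1.69 (SE 0.12, adjusted p = 1.45e-15) on the TMM scale and 1.09 (adjusted p = 2.2e-05) on the spike-in scale. With dCeMM-3 it fell, at -1.33 (SE 0.17, adjusted p = 2.67e-09). IKBKE, an IkB kinase relative of interferon signalling, fell to 3.28 ± 0.692 CPM with dCeMM-4 against 19.2 ± 1.44 CPM with DMSO, a log2 change of -2.56 (SE 0.14, adjusted p = 2.77e-18). Its log2 fold change was -1.83 (SE 0.14) with dCeMM-2, -1.04 (SE 0.13) with dCeMM-3 and -1.66 (SE 0.14) with THZ531, with a highest adjusted p of 2.57e-09.

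The 3 cyclin K degraders were given at the same multiple of EC50, so they were compared directly, in 3 pairs, with adjustment over all genes within a pair. For dCeMM-2 against dCeMM-3, 15 members were higher and 4 lower with dCeMM-2, against 26.6% and 16.5% of all genes, and 9 were at least 2-fold higher, where 13.7% of all genes differed by that much either way. OSM differed most, at 4.77 ± 0.521 CPM with dCeMM-2 and 0.263 ± 0.0552 CPM with dCeMM-3, a log2 difference of 4.13 (SE 0.29, adjusted p = 2.16e-15). NFKBIZ had a log2 difference of 2.27 (SE 0.09), CSF1 2.08 (SE 0.19), NFKB1 1.75 (SE 0.08), MAP3K8 1.52 (SE 0.16), CD83 1.41 (SE 0.17), RELA 1.36 (SE 0.09), CXCL8 1.19 (SE 0.19) and TNFAIP3 1.15 (SE 0.14), with a highest adjusted p of 2.36e-06. NFKBIA was also higher with dCeMM-2 (0.81, SE 0.08, adjusted p = 8.57e-12). IL1B was lower with dCeMM-2, at -0.80 (SE 0.21, adjusted p = 0.00147). NFKBIE did not pass the test, with a log2 difference of -0.37 and a 95% interval of -0.80 to 0.06, and RELB had 0.10 with an interval of -0.16 to 0.37. By spike-in scaling 10 members were higher and 3 lower, against 18.4% and 4.32% of all genes.

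For dCeMM-2 against dCeMM-4, 6 members were higher and 19 lower with dCeMM-2, against 38.4% and 38.9% of all genes, and 2 were higher and 8 lower by at least 2-fold, where 38.3% of all genes differed by that much either way. The members' 2-fold differences, both directions together, did not exceed that share. NFKBIE had a log2 difference of -2.53 (SE 0.16), OSM -2.17 (SE 0.12), IL1B -1.92 (SE 0.17), TRAF2 and MAP3K8 -1.50 (SE 0.14 and 0.12), RELA -1.21 (SE 0.08), BIRC2 -1.16 (SE 0.13) and CD83 -1.09 (SE 0.13), with a highest adjusted p of 3.21e-07. NFKB2 and TRAF1 were higher with dCeMM-2 on the TMM scale, by 1.14 (SE 0.09, adjusted p = 3.76e-14) and 1.19 (SE 0.19, adjusted p = 7.09e-07), and had -0.08 and -0.04 on the spike-in scale, where neither passed the test. NFKBIA reversed, at 0.25 (SE 0.07, adjusted p = 0.00226) on the TMM scale and -0.96 (adjusted p = 1.5e-05) on the spike-in scale. CXCL8 had 0.33 (SE 0.17, adjusted p = 0.0649) on the TMM scale, which was called without dCeMM-4 replicate 1 (0.48, adjusted p = 0.019), and -0.85 (adjusted p = 0.00156) on the spike-in scale. By spike-in scaling 0 members were higher and 23 lower, against 2.63% and 66.8% of all genes.

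For dCeMM-3 against dCeMM-4, 5 members were higher and 19 lower with dCeMM-3, against 41.5% and 41.2% of all genes, and 3 were higher and 15 lower by at least 2-fold, where 51.4% of all genes differed by that much either way. OSM had 0.263 ± 0.0552 CPM with dCeMM-3 and 21.7 ± 1.42 CPM with dCeMM-4, a log2 difference of -6.30 (SE 0.21, adjusted p = 1.6e-26). MAP3K8 had -3.02 (SE 0.14), NFKBIZ -2.80 (SE 0.09), RELA -2.57 (SE 0.09), CD83 -2.50 (SE 0.15), CSF1 -2.42 (SE 0.18), NFKB1 -2.31 (SE 0.08) and NFKBIE -2.16 (SE 0.15), with a highest adjusted p of 2.2e-15. TNFAIP3 and BIRC2 had -1.68 (SE 0.13 and 0.14), REL -1.34 (SE 0.11), TRAF2 -1.25 (SE 0.13), TNIP1 -1.18 (SE 0.08), IL1B -1.13 (SE 0.15) and BCL3 -1.03 (SE 0.13), with a highest adjusted p of 1.14e-08. NFKBIA had -0.56 (SE 0.08, adjusted p = 1.38e-08) and CXCL8 -0.85 (SE 0.19, adjusted p = 0.000108). IKBKE (1.52, SE 0.16), TRAF1 (1.31, SE 0.18) and NFKB2 (1.13, SE 0.09) were higher with dCeMM-3 on the TMM scale, with a highest adjusted p of 4.82e-08. None of these 3 passed the test on the spike-in scale, where NFKB2 was -0.14, TRAF1 0.07 and IKBKE 0.25. ICAM1 did not pass the test on the TMM scale, with a log2 difference of -0.16 and a 95% interval of -0.35 to 0.03. BIRC3 had 0.04 there, with an interval of -0.14 to 0.22. Both were called lower with dCeMM-3 by spike-in scaling, ICAM1 with a log2 difference of -1.18 or lower. On the spike-in scale 0 members were higher and 24 lower, against 5.35% and 65.3% of all genes. The THZ531 dose was not set by its EC50, so its values stand beside the others with no test between them.

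Further genes of the pathway were counted by list. Of 24 genes that relay the signal from receptor to IkB kinase, 3 fell and 9 rose with dCeMM-1, 18 and 2 with dCeMM-2, 20 and 2 with dCeMM-3, 10 and 10 with dCeMM-4, and 21 and 1 with THZ531. The shares of all genes that fell and rose were 14.8% and 16.5%, 41.2% and 37.1%, 45.1% and 35.9%, 35.3% and 32.9%, and 43.7% and 35.8% in the same order of compounds. The median log2 fold change of the relay genes was 0.07, -0.97, -1.22, -0.08 and -0.99, against 0.03, -0.02, -0.15, 0.01 and -0.10 over all genes. On the spike-in scale 24 fell with each of dCeMM-2, dCeMM-3 and THZ531, where 83%, 83.7% and 84.7% of all genes fell. MYD88, the adaptor of Toll-like receptors, had 7.65 ± 0.732 CPM with dCeMM-3 against 72.7 ± 2.80 CPM with DMSO, a log2 change of -3.25 (SE 0.10, adjusted p = 3.75e-27). TBK1, a kinase related to IKBKE, had 6.19 ± 0.188 CPM with dCeMM-3 against 53.4 ± 4.72 CPM with DMSO, a log2 change of -3.12 (SE 0.11, adjusted p = 4.83e-26). TAB2 and BCL10, adaptors that bind polyubiquitin or relay antigen receptor signals, rose with dCeMM-4 on the TMM scale by log2 fold changes of 0.94 and 0.86, and did not pass the test on the spike-in scale (0.38 and 0.30).

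Of 20 receptor genes, 14 were tested, of which 4 fell and 3 rose with dCeMM-1, 6 and 6 with dCeMM-2, 7 and 6 with dCeMM-3, 7 and 4 with dCeMM-4, and 6 and 6 with THZ531. Among all genes 14.8% and 16.5%, 41.2% and 37.1%, 45.1% and 35.9%, 35.3% and 32.9%, and 43.7% and 35.8% fell and rose in the same order, so the receptor list lay near the background with dCeMM-2, dCeMM-3 and THZ531. Its median log2 fold change was 1e-04, -0.20, -0.13, -0.23 and -0.18. With dCeMM-1 and dCeMM-4 the excess of falls was a few genes and was not tested. On the spike-in scale 0 receptor genes fell and 2 rose with dCeMM-1, against 1.34% and 2.83% of all genes. TNFRSF1A, the main TNF receptor, had 4.50 ± 0.410 CPM with THZ531 against 97.4 ± 2.47 CPM with DMSO, a log2 change of -4.43 (SE 0.11, adjusted p = 5.12e-30). TLR4, the lipopolysaccharide receptor, had 0.135 ± 0.117 CPM with dCeMM-3 against 1.50 ± 0.0458 CPM with DMSO (adjusted p = 6.24e-07). LIFR, a signalling subunit shared by receptors of the interleukin-6 family, rose with dCeMM-4 on both scales, by log2 fold changes of 1.74 and 1.20. TNFRSF9, the receptor of TNFSF9, rose with dCeMM-3 on the TMM scale (1.43) and not on the spike-in scale (-0.33, adjusted p = 0.395).

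Further lists covered regulators outside the members, other known NF-kB targets, and genes of cytokine processing and mRNA decay. The regulator list was drawn up as negative regulators. RNF31 and RBCK1 in it promote NF-kB signalling, so its counts mix both kinds. Of 15 tested genes of 16 on this list, 0 fell and 2 rose with dCeMM-1, and 7 and 5 with dCeMM-2. The counts were 8 and 3 with dCeMM-3, 5 and 4 with dCeMM-4, and 10 and 3 with THZ531. Among all genes the shares were 14.8% and 16.5%, 41.2% and 37.1%, 45.1% and 35.9%, 35.3% and 32.9%, and 43.7% and 35.8%. The list's median log2 fold change was -0.05, -0.14, -0.59, -0.07 and -0.39. RNF31 and NFKBID fell with dCeMM-2 (-2.08 and -1.86), OTULIN rose with dCeMM-4 on both scales (1.26 and 0.68), and RBCK1 was 1.18 with dCeMM-2 on the TMM scale but -0.62 on the spike-in scale. Of 22 tested NF-kB targets of 30, 5 fell and 2 rose with dCeMM-1, 9 and 11 with dCeMM-2, 11 and 9 with dCeMM-3, 8 and 7 with dCeMM-4, and 10 and 9 with THZ531, against the same 14.8% and 16.5%, 41.2% and 37.1%, 45.1% and 35.9%, 35.3% and 32.9%, and 43.7% and 35.8% of all genes. Their median log2 fold change was -0.04, 0.47, -0.28, 0.18 and 0.001, and the falls lay near the background with dCeMM-2, dCeMM-3, dCeMM-4 and THZ531. With dCeMM-1 the excess of falls was a few genes and was not tested. CD69, an early activation antigen, had 5.78 ± 1.71 CPM with dCeMM-3 against 186 ± 15.1 CPM with DMSO (log2 fold change -4.98, adjusted p = 4.52e-31). TNFSF14, a TNF-family ligand, had 0.0265 ± 0.0459 CPM with dCeMM-3 against 0.996 ± 0.312 CPM with DMSO (adjusted p = 3.7e-06).

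Some targets went the other way on both scales. IER3, an immediate early gene, had 17.0 ± 1.43 CPM with THZ531 against 0.160 ± 0.187 CPM with DMSO, log2 fold changes of 6.25 on the TMM scale (SE 0.40, adjusted p = 3.25e-13) and 4.48 on the spike-in scale. GADD45B, a stress-induced gene, had 99.7 ± 2.22 CPM with dCeMM-2 against 8.23 ± 0.749 CPM with DMSO, log2 fold changes of 3.63 (SE 0.09, adjusted p = 3.74e-29) and 1.84. Of 12 genes of cytokine processing and mRNA decay, 4 fell and 0 rose with dCeMM-1, 6 and 6 with dCeMM-2, 7 and 3 with dCeMM-3, 5 and 5 with dCeMM-4, and 5 and 5 with THZ531. The shares of all genes were 14.8% and 16.5%, 41.2% and 37.1%, 45.1% and 35.9%, 35.3% and 32.9%, and 43.7% and 35.8%, and the list's median log2 fold change was -0.08, 0.02, -0.27, 0.04 and 0.03. ZFP36 and ZFP36L1, which bind AU-rich messages and hasten their decay, rose with dCeMM-2 by log2 fold changes of 2.83 and 2.31 on the TMM scale and 1.01 and 0.51 on the spike-in scale. Their relative ZFP36L2 fell with dCeMM-3 (-2.99, SE 0.11, adjusted p = 1.29e-23). NLRP3, a sensor protein whose inflammasome leads to cleavage of the interleukin-1 beta precursor, had 0.0703 ± 0.0662 CPM with dCeMM-3 against 2.85 ± 0.754 CPM with DMSO (adjusted p = 5.81e-12).

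The AU-rich element was searched for in the annotated 3′ untranslated regions. The letters TATTTAT were present in 15 of the 32 members (46.9%) and in 5257 of 19034 protein-coding genes (27.6%), and in 9 of the 10 cytokine and chemokine genes (90%), with LTB the exception. The shorter run ATTTA, which lies within it, had a median of 6.83 per kilobase in the cytokine and chemokine genes, 2.44 in all members and 1.35 in all protein-coding genes. IL1B held 6 ATTTA and 4 TATTTAT, OSM 5 and 2, and NFKBIA 3 and 2, while NFKBIE and RELB held none of either. The 12 tested members with TATTTAT had a median log2 fold change of -0.68 with dCeMM-2, -1.66 with dCeMM-3, -0.47 with dCeMM-4 and -1.14 with THZ531, and the 17 without had -0.79, -1.31, -0.18 and -0.97 in the same order. With dCeMM-1 the medians were -0.25 with and -0.34 without. Both groups include strong falls, as IL1B is in the first and NFKBIE in the second.

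Gene counts per library ranged from 4598576 to 17943571, with DMSO replicate 3 the shallowest. Of the 8 markers listed for this line, CD33, KIT, SPI1, GATA2, BCR and ABL1 had 12.4 CPM or more in all 18 libraries, while CD34 had 0.451 to 2.72 CPM and MPO at most 0.375 CPM. Of other cell types, markers of erythroid cells were at most 0.282 CPM, and CD14 and CD163 of monocytes at most 0.549 CPM and 0, with LYZ at 3.26 to 7.24 CPM. CD4 lay at 313 to 700 CPM and CD3D at 63.0 to 151 CPM, with CD3E at 1.33 to 4.12 CPM and CD8A at most 0.244 CPM. Among B cell markers CD79A had 2.39 to 9.16 CPM and MS4A1 at most 0.0589 CPM. The epithelial keratins KRT8 and KRT18 had 15 to 56.6 and 25.8 to 75 CPM, with EPCAM at most 1.48 and CDH1 at most 0.328 CPM. The endothelial marker PECAM1 had 15.7 to 45 CPM, with VWF at most 0.164 and CDH5 at most 0.082 CPM. Of fibroblast markers COL1A1 had 0.632 to 3.9 CPM and DCN 0. Counts of mitochondrial genes took 10.5 to 14.9% with dCeMM-3 and 8.17 to 12.9% with THZ531, against 4.62 to 5.89% with DMSO, and their part in the results above was not tested.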

How the data were processed

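Each of the 18 libraries had 1 deposited table of raw read counts per gene, which the authors had not normalized. Per the submitters' processing notes, Trimmomatic 0.32, STAR 2.5.2b, Picard, HTSeq 0.11.2 and the build GRCh38.p7 were used. Their roles and the strand setting are not given in the sources used here, so reads of overlapping opposite-strand genes cannot be told apart. Per the labels' protocols, poly-A RNA was enriched and went into the CORALL kit, with a spike-in of 92 ERCC sequences and 7 SIRV genes. Titles name the dCeMM compounds by hit numbers, which the series' design text ties to their names. Counts not assigned to a gene (5 summary values a table) made up 34.2 to 50.5% of a library and were left out. Their share differed by group, at 34.45 to 35.54% with DMSO, 34.21 to 38.55% with dCeMM-1 and 39.07 to 39.14% with dCeMM-4. With dCeMM-2 it was 44.46 to 45.52%, with dCeMM-3 45.67 to 50.52% and with THZ531 45.64 to 45.93%. The part of this difference in the results was not tested.

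Counts were filtered (filterByExpr), scaled by TMM and tested with edgeR 4.0.16 (robust quasi-likelihood fit, R 4.3.3, limma 3.58.1) over all 18 libraries, with 12 residual degrees of freedom and a common dispersion of 0.00439. Benjamini-Hochberg adjusted p-values cover 15055 genes within each of 8 comparisons. The same fit was run with spike-in scaling. Intervals are 95%. The steps were tested on simulated data. GENCODE 29 matched 57447 of 58051 identifiers. Alternatives were DESeq2 1.42.0, its size factors, no filter, a replicate block, only the 2 groups compared, spike-in scaling and leaving out each library.

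Named with full statistics were OSM, IL1B, NFKBIE, NFKBIA and CXCL8 in each comparison, members with an absolute log2 fold change of at least 1 and no overlap between libraries, and the 2 largest rises and falls of each pathway list. Other members with smaller changes were added after their values were seen. The members and lists were chosen with earlier results of these data known.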

Additional observations from a re-analysis of the deposited data

How the results depend on the processing

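Spike-in scaling changed the results most. Under it the number of members higher was 1 with dCeMM-1, 0 with dCeMM-2, 0 with dCeMM-3, 2 with dCeMM-4 and 0 with THZ531 against DMSO, and 0 for dCeMM-2 and 0 for dCeMM-3 against dCeMM-4, and the number lower with dCeMM-1 was 1. Of 112 named log2 fold changes, 7 changed sign under it. These were CXCL2 (-0.21) and TNFSF9 (-0.74) with THZ531 against DMSO, NFKB2 (-0.0843), NFKBIA (-0.96), TRAF1 (-0.0381) and CXCL8 (-0.85) for dCeMM-2 against dCeMM-4, and NFKB2 (-0.14) for dCeMM-3 against dCeMM-4. Another 6 lost their call, and 2 gained one, CXCL8 with dCeMM-2 and with THZ531 against DMSO. The scaling itself moves all genes of a library together. Leaving out 1 library kept the call in 2001 of 2016 values, with 10 lost and 5 gained, and the number lower with dCeMM-1 ranged from 11 to 18. DESeq2 and its size factors inside edgeR kept all 112 calls. Without the low-count filter, IL1B with dCeMM-1 (adjusted p = 0.118) and NFKBIA for dCeMM-2 against dCeMM-4 (adjusted p = 0.239) lost theirs, and the cause was not tested. With only the 2 groups compared in the fit, CXCL8 for dCeMM-2 against dCeMM-4 gained a call (0.39, adjusted p = 0.0233). The replicate block kept all 16 counts of members and 111 of 112 calls. It gave -0.24 (adjusted p = 0.0527) for IL1B with dCeMM-1. Libraries with the same number had correlations of -0.224 to 0.237 (median 0.0152), with 11 of 45 pairs over 0.1 and 10 of 18 libraries closest to one of their own number, so the numbers were not taken as pairs. Depth limits TNF, CCL3, CCL4 and CXCL2, which had few reads.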
